A study of Rattus norvegicus with 31 samples.

Results

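The histone genes of rat liver were followed through 7 treatment groups in total RNA sequencing data. Members were the genes of the count table whose symbol starts, in any letter case, with Hist1h, Hist2h, Hist3h, Hist4h, H1f, H2afy, H2afz, H2afv, H2afj or H3f3 and whose counts sum to at least 2 over the 31 libraries. Of 62 genes with such a symbol, 7 fell below that sum, which left 55 members among the 19904 genes that passed it. By symbol, 47 were replication-dependent (Hist1h, Hist2h and Hist3h genes) and 8 were replacement histones (H3f3b, H3f3c, H2afy, H2afy2, H2afz, H2afj, H1f0 and H1fx). No gene starting with Hist4h or H2afv was among the 55.

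Livers came from young adult female Wistar rats (Crl:WI) that were gavaged daily for 28 days. Thiacloprid (THI) and clothianidin (CTD) are neonicotinoid insecticides, and imazalil (IMZ) is an azole fungicide. The 8 control rats received the vehicle, aqueous carboxymethyl-cellulose, which all treated rats received as well. Doses in mg/kg body weight/day were 108 for THI, 93 for IMZ and 288 for CTD, and the mixtures combined 54 THI with 46 IMZ, 54 THI with 134 CTD, and 46 IMZ with 135 CTD. CTD was measured in 3 rats and each other treatment in 4, 1 library per rat, so every spread below is between animals. The paper states that at least 1 rat of this CTD dose group was killed when moribund.

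Replication-dependent histones are the core and linker proteins that package newly copied DNA. Their genes lie in clusters, and their mRNAs are made mainly in S phase and end in a stem-loop in place of a poly(A) tail, so they are captured when total RNA is sequenced without poly(A) selection. Replacement histones come from single genes with ordinary polyadenylated mRNAs, are made throughout the cell cycle and enter chromatin of resting cells such as most hepatocytes.

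Library totals ran from 32726300 to 101230067 counts in controls and from 31820322 to 54791509 in treated rats. Values are CPM, counts relative to the library total, scaled by TMM, a factor that removes differences in library makeup. CPM is not divided by gene length, so levels are compared between rats and not between genes. Where members are ranked by CPM or called abundant below, this is a level of reads and not of molecules. Of the 55 members, 39 had at least 10 counts in all 31 libraries. The 6 hepatocyte markers (Alb, Ttr, Apoa1, Tf, Cps1 and Serpina1) summed to 160421 to 250745 CPM over all rats, which fits the liver label.

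Gene copies limit what a single symbol means. The table holds 17 members whose symbol occurs on more than 1 identifier (for example 4 identifiers named Hist1h4b in either letter case), and these carry their identifier below. Core histone genes of 1 family have near-identical coding sequences, and counting that keeps uniquely placed reads can lose or split reads among such copies, so the value of each single copy is uncertain. In the paper's mapping summary, CTD rats 2 and 3 had a lower share of uniquely mapped reads than every control. All rats of both CTD mixtures had a higher share than every control. The part of this share in the histone differences was not tested. In bulk liver, more RNA per cell and more cells that make it cannot be told apart.

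Upstream sequences are shown for members that rose (Hist1h2bg, Hist1h2bk, Hist1h1a and H2afz) or fell (H3f3b and H1f0) in at least 1 group. RefSeq (GRCr8) held 1 promoter of 300 bases, 250 before to 50 after the start, for 31 of the 55 members by name (24 replication-dependent, 7 replacement). The 17 members with a repeated symbol were not matched. The 150 bases before the start follow, 5′ to 3′ on the gene's strand, with capitals marking the CCAAT box, the TATAAA form of the TATA box and the octamer ATTTGCAT known from H2B promoters, on either strand.
Hist1h2bg (chr17:41999119-41999268, plus strand): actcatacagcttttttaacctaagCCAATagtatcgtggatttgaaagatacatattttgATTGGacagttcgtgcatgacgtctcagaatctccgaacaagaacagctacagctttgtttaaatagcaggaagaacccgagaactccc
Hist1h2bk (RefSeq H2bc12, chr17:47181941-47182090, minus strand): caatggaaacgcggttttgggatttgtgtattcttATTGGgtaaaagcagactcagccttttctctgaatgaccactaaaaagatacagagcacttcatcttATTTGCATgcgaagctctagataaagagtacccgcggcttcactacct
Hist1h1a (RefSeq H1f1, chr17:41794869-41795018, minus strand): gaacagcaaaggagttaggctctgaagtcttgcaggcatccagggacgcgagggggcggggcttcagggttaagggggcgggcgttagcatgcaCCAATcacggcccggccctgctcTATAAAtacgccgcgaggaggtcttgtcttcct
H2afz (RefSeq H2az1, chr2:229028945-229029094, plus strand): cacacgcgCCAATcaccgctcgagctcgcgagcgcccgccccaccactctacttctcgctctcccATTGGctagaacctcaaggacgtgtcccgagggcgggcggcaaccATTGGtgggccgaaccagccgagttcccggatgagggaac
H3f3b (chr10:101757637-101757786, minus strand): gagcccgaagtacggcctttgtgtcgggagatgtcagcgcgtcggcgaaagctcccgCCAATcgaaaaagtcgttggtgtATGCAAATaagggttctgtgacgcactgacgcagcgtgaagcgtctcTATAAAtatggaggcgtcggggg
H1f0 (chr7:112473130-112473279, plus strand): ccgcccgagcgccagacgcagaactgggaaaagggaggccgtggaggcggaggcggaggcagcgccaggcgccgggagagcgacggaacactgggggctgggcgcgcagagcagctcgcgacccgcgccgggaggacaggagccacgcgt
The printed stretches of Hist1h2bg, Hist1h2bk and Hist1h1a each hold at least 1 CCAAT, and that of H2afz holds 3. Of the members that fell, H3f3b holds 1 match of each of the 3 motifs and H1f0 holds none. The 24 replication-dependent windows were mostly of H2A (11) and H2B (8) genes, with 2 H1, 2 H3 and 1 H4, and the H4 window held no motif. In the whole windows, CCAAT occurred in 22 of 24 replication-dependent promoters (91.7%) and 3 of 7 replacement promoters, against 37.5% of all 33469 promoters of the table. TATAAA was found in 15 of 24, 2 of 7 and 14.2% of all. ATTTGCAT was found in 8 of 24, of which 4 were among the 8 H2B windows, in 1 of 7 (H3f3b) and in 1.78% of all. A match is a match of letters and not a bound site, and neighbouring H2A and H2B genes can share 1 window in opposite orientation.

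CTD gave the widest histone response. Against control, 25 of 47 replication-dependent members rose and 2 fell, while of 8 replacement members 1 rose and 2 fell. These 30 calls among 55 members stand beside 12.7% of all genes called in this comparison (6.62% higher and 6.03% lower). The median log2 fold change was 1.34 over the replication-dependent members, -0.33 over the replacement members and -0.07 over all genes tested. All rats of the CTD group lay above all 8 controls for 21 of the 47, against 5.33% of all genes. Rises occurred in each family, with 2 of 4 H1, 9 of 16 H2A, 8 of 12 H2B, 4 of 7 H3 and 2 of 8 H4 genes. Rat 1 of the CTD group was the highest of its group for all 26 members that rose, H2afz included, and without it 21 members were called. All comparisons with control share the same 8 control rats.

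**Figure D1:**
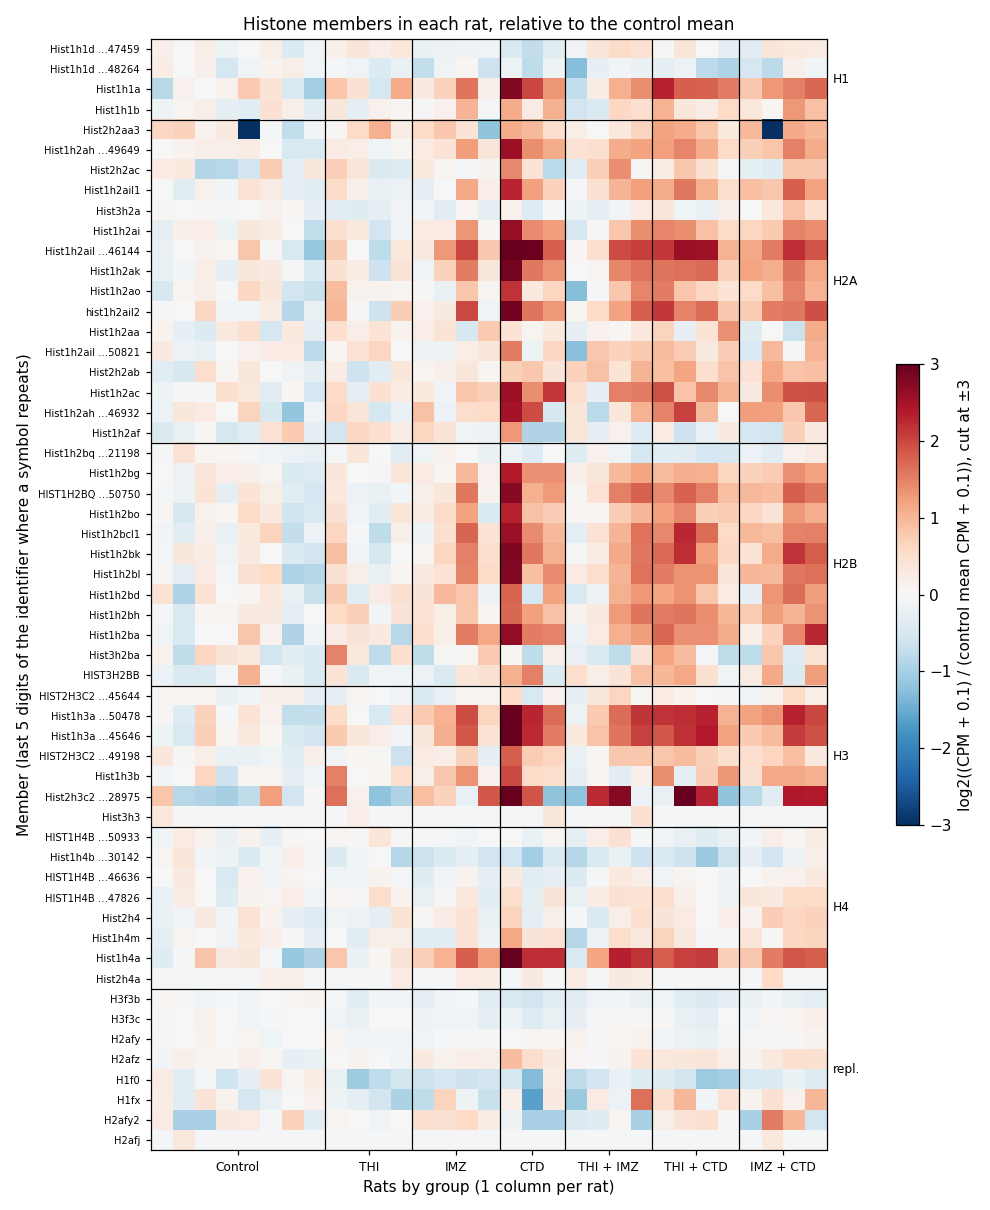
Histone members (one line each, grouped by family with the replacement histones at the bottom) in the 31 rats (one column each), coloured by log2 of CPM plus 0.1 relative to the control mean plus 0.1, with the scale cut at 3 in both directions. Red fields gather in the CTD, THI + CTD and IMZ + CTD columns. The columns of THI + IMZ rats 3 and 4 and of IMZ rat 3 hold them too. The uppermost genes (highest CPM) of the H1, H2B, H3 and H4 families and most replacement histones stay pale.

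Both mixtures that contain CTD moved the same class at lower CTD doses. THI + CTD raised 21 replication-dependent members and lowered 1, and lowered 2 of 8 replacement members, 24 calls beside 4.39% of all genes called (2.67% higher and 1.71% lower). IMZ + CTD raised 17 replication-dependent members and lowered none, and called no replacement member, beside 1.46% of all genes (1% higher). Median log2 fold changes of the 47 were 0.99 and 1.09, against -0.03 and -0.03 over all genes. In each of these mixtures, 17 of the 47 had all 4 rats above all 8 controls, against 2.14% and 1.61% of all genes. The IMZ + CTD count depends on single rats: it was 2 without rat 3, 6 without rat 4 and 11 without rat 2 of that group.

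THI + IMZ raised 5 replication-dependent members and called no replacement member, beside 1.18% of all genes called (0.849% higher). These were both Hist1h3a copies, Hist1h2ah (ENSRNOG00000049649), Hist1h2bh and Hist1h4a. Leaving out rat 3 or rat 4 of the mixture left 0 calls, leaving out rat 1 gave 9 and rat 2 gave 8, and leaving out control rat 1, 7 or 8 gave 2 and control rat 6 gave 3. The median over the 47 was 0.65, and DESeq2 called 12 members beside 2.19% of all genes.

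THI alone and IMZ alone called no member with edgeR. For THI, 3 of 55 members had an unadjusted p under 0.05 (against 8.68% of all genes), DESeq2 called 0 (against 1%), and 0.543% of all genes were called. For IMZ, 18 of 55 had an unadjusted p under 0.05 (against 8.08% of all genes), DESeq2 called 1 member (against 0.754%), and 0.251% of all genes were called. Medians over the replication-dependent members were 0.16 for THI and 0.41 for IMZ.

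Markers of other cells moved in part with these groups. Of 6 erythroid markers tested, 4 rose and Slc4a1 fell with CTD, and Hbb, a haemoglobin chain, rose with THI + CTD. Hbb was 2.83 ± 0.48 (adjusted p = 0.000108) with CTD and 1.59 ± 0.45 (adjusted p = 0.0371) with THI + CTD. The latter call was lost without mixture rat 3 (0.57, adjusted p = 0.613) or without any of control rats 4, 5, 6, 7 and 8. The summed level of the 6 erythroid markers was 27.4 to 67.6 CPM in controls, 157 to 187 CPM with CTD and 34.8 to 217 CPM with THI + CTD. It was 21.3 to 70.1 CPM with IMZ + CTD, 31.4 to 44.0 CPM with THI + IMZ, 19.2 to 118 CPM with THI and 46.0 to 82.0 CPM with IMZ. None of these markers was at 0 in any group. Of 5 Kupffer cell markers tested, 2 fell with CTD and 1 with THI + CTD, with sums of 277 to 489 CPM in controls and 242 to 386 CPM with CTD. Over all genes, 6.62% rose and 6.03% fell with CTD, and 2.67% rose and 1.71% fell with THI + CTD. T and NK cell markers (6) summed to at most 1.86 CPM and B and plasma cell markers (4) to at most 0.791 CPM in any rat, and none of either list was called against control. The part of these cells in the histone differences was not tested.

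Most members that rose with CTD were outside the 10 with the highest CPM, where CPM is a level of reads and not of molecules. The 10 replication-dependent members with the highest mean CPM over the 31 rats were set apart from the other 37 after the values were seen. Among these 10, CTD raised 1 (Hist1h2bg) and lowered 2. Among the other 37, CTD raised 24 and lowered none, THI + CTD raised 20, IMZ + CTD raised 16 and THI + IMZ raised 5. Over all genes, 6.62% rose and 6.03% fell with CTD. The shares that rose were 2.67% with THI + CTD, 1% with IMZ + CTD and 0.849% with THI + IMZ. The IMZ + CTD and THI + IMZ counts depend on single rats, as given above. Of the 24 of these 37 with at least 10 counts in every library, 20 rose with CTD, so the rise was not limited to scarcely counted genes.

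Summed over the 10 abundant members, CPM was 419.9 to 559.5 in controls (median 453). It was 465, 345 and 449 in the CTD rats, 421, 429, 361 and 358 in THI + CTD and 415, 435, 531 and 553 in IMZ + CTD, ranges that overlap the controls. The other 37 members summed to 43.5 to 63.4 CPM in controls (median 56.2), and the CTD rats had 269, 129 and 105 CPM. THI + CTD rats had 138, 145, 124 and 82.8 CPM and IMZ + CTD rats 86.3, 85.6, 149.8 and 132 CPM, all above the highest control. In THI + IMZ the values were 49.3, 68.2, 115 and 128 CPM, with rat 1 inside the control range and the other 3 above it.
IMZ rats had 63.6, 72.9, 119 and 60.1 CPM, 3 of 4 above the highest control, and THI rats had 74.1, 58.7, 55.5 and 59.0 CPM, 1 of 4 above it. As a share of all replication-dependent CPM, the 37 members made up 8.84 to 12.3% in controls and 18.9 to 36.6% in CTD rats. The sum over all 47 therefore overlapped the controls in every treated group, at 463 to 616 CPM in controls and 474 to 734 CPM with CTD.

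**Figure D2:**
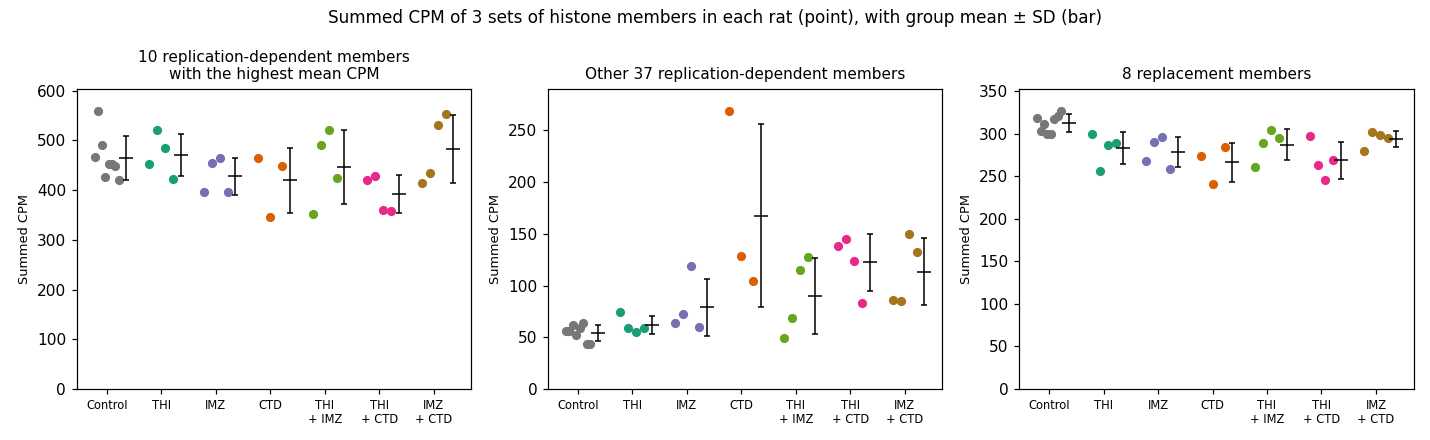
Summed CPM (vertical axes, from 0) of the 10 replication-dependent members with the highest CPM, the other 37, and the 8 replacement members in each rat by group, with the group mean and SD as a bar, as in the other plots by rat. The other 37 members lie between 43.5 and 63.4 CPM in controls and between 105 and 269 CPM with CTD, while the 10 abundant members overlap the controls in all groups.

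Among linker histones, which bind the DNA between nucleosomes, Hist1h1a rose and an abundant Hist1h1d copy fell with CTD. Hist1h1a was at 0.461 to 1.88 CPM (median 1.10) in controls, 7.70, 4.497 and 2.77 CPM with CTD, 5.57, 3.88, 3.79 and 3.19 CPM with THI + CTD and 1.91, 2.73, 3.14 and 3.66 CPM with IMZ + CTD. Every rat of these 3 groups lay above the highest control, with log2 fold changes of 2.25 ± 0.38 (adjusted p = 9.52e-05), 1.96 ± 0.35 (adjusted p = 0.00100) and 1.44 ± 0.36 (adjusted p = 0.0326). The last call was lost without any of control rats 1, 7 and 8 or IMZ + CTD rats 2, 3 and 4, at 1.29 (adjusted p = 0.150) without rat 4. Hist1h1d (ENSRNOG00000047459) was at 42.4 to 64.1 CPM (median 56.6) in controls and 41.2, 33.5 and 44.6 CPM with CTD, of which 2 rats lay below all controls. Its log2 fold change was -0.49 ± 0.14 (adjusted p = 0.0186), and it was -0.38 (adjusted p = 0.153) without CTD rat 2 and -0.52 (adjusted p = 0.0557) without CTD rat 1.
In THI + IMZ the same gene had 51.7, 72.4, 81.9 and 75.6 CPM, 3 of 4 rats above all controls, with a log2 fold change of 0.33 ± 0.12 (adjusted p = 0.246). The other Hist1h1d copy (ENSRNOG00000048264) did not pass the test in any group, with log2 fold changes from -0.51 to -0.18. Hist1h1b rose with CTD by 0.89 ± 0.28 (adjusted p = 0.0312), with 1.33 to 2.39 CPM (median 1.67) in controls and 3.82, 2.04 and 3.69 CPM with CTD. That call was lost without CTD rat 1 or 3 or control rat 5 or 8, and without CTD rat 1 it was 0.73 (adjusted p = 0.189).

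Of the H2A genes, which pair with H2B in the nucleosome core, 9 of 16 rose with CTD, 8 with THI + CTD and 8 with IMZ + CTD. The shares of all genes that rose were 6.62%, 2.67% and 1% in the same order. Hist1h2ail (ENSRNOG00000046144) had the largest log2 fold change of all members with CTD, 2.99 ± 0.39 (adjusted p = 4.14e-06). Its controls lay at 0.380 to 1.79 CPM (median 0.974), and the CTD rats at 11.7, 8.06 and 3.60 CPM. With THI + CTD it was at 4.53, 6.31, 6.07 and 2.08 CPM and with IMZ + CTD at 2.28, 3.04, 4.82 and 3.82 CPM, so all rats of the 3 groups lay above the highest control. The log2 fold changes of the mixtures were 2.28 ± 0.37 (adjusted p = 0.00034) and 1.83 ± 0.38 (adjusted p = 0.00827). The IMZ + CTD call was lost without rat 3 of that group, at 1.64 (adjusted p = 0.0780).
Hist1h2ah (ENSRNOG00000049649) was at 2.99 to 4.92 CPM (median 4.36) in controls and 24.997, 11.1 and 9.07 CPM with CTD, a log2 fold change of 1.85 ± 0.23 (adjusted p = 2.18e-06). In THI + IMZ it was at 5.67, 5.85, 9.07 and 9.76 CPM, all 4 rats above the controls, with 0.86 ± 0.22 (adjusted p = 0.0477), a call lost without rat 3 or 4 or without any of control rats 1, 3, 6, 7 and 8. Without rat 4 it was 0.72 (adjusted p = 0.192). THI + CTD gave 1.16 ± 0.22 (adjusted p = 0.00179) and IMZ + CTD 1.09 ± 0.22 (adjusted p = 0.00685), the latter 0.91 (adjusted p = 0.0894) without IMZ + CTD rat 3. All 4 IMZ rats also lay above the controls, at 4.98, 5.57, 10.1 and 5.40 CPM, with 0.63 ± 0.22 (adjusted p = 0.356).
The other H2A genes named by their test over the 7 groups were Hist1h2ail1, Hist1h2ai, Hist1h2ak and Hist1h2ac, with log2 fold changes with CTD from 1.58 to 2.39. Each passed the test in CTD, THI + CTD and IMZ + CTD, and the IMZ + CTD call of each was lost without rat 3 of that group (adjusted p from 0.0574 to 0.206). Rat 4 of that group decided the call of Hist1h2ak too (1.37, adjusted p = 0.0581 without it), and that of Hist1h2ai was lost without any of control rats 1, 3, 4, 6, 7 and 8 or mixture rats 2, 3 and 4, at 1.02, adjusted p = 0.206 without rat 3. The THI + CTD call of Hist1h2ai was lost without rat 1 or 2 of that group and that of Hist1h2ail1 without rat 2, at 1.02 (adjusted p = 0.0792) and 0.94 (adjusted p = 0.0786).

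Among H2B genes, Hist1h2bg had the smallest p of all members over the 7 groups (5.04e-08, adjusted p = 1.85e-05). Controls had 4.73 to 8.33 CPM (median 6.66), CTD rats 34.0, 16.8 and 16.8 CPM, THI + CTD rats 12.5, 13.9, 13.6 and 10.2 CPM and IMZ + CTD rats 10.5, 10.9, 16.8 and 14.9 CPM. No rat of these groups overlapped the controls, and log2 fold changes were 1.80 ± 0.21 (adjusted p = 7.06e-07), 0.96 ± 0.20 (adjusted p = 0.00378) and 1.04 ± 0.20 (adjusted p = 0.00466), the last 0.90 (adjusted p = 0.0543) without IMZ + CTD rat 3.
HIST1H2BQ (ENSRNOG00000050750), Hist1h2bk, Hist1h2bl and Hist1h2bh rose with CTD by 1.94 ± 0.32, 2.10 ± 0.37, 2.01 ± 0.34 and 1.52 ± 0.30, with adjusted p from 8.61e-05 to 0.000595. All 4 also rose with THI + CTD, by 1.28 to 1.64, and with IMZ + CTD, by 1.29 to 1.61. Each of these IMZ + CTD calls was lost without rat 4 of that group, with adjusted p from 0.0595 to 0.105. Rat 3 decided them as well except for Hist1h2bh, which depended on rat 2 (1.23, adjusted p = 0.0533). The THI + CTD call was lost for Hist1h2bk without rat 2 (1.32, adjusted p = 0.0512) and for Hist1h2bl without rat 1, 2 or 3 (1.14, adjusted p = 0.0696 without rat 1). Hist1h2bh also passed with THI + IMZ, at 1.12 ± 0.28 (adjusted p = 0.0338), a call lost without mixture rat 3 or 4 or control rat 1, 3, 7 or 8, at 0.77 (adjusted p = 0.268) without rat 4.

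The member with the highest CPM of all, Hist1h2bq (ENSRNOG00000021198), did not follow them. It held 31.2 to 37.9% of the replication-dependent CPM in controls and was at 148 to 233 CPM (median 167). CTD rats had 155, 134 and 171 CPM, THI + CTD rats 139, 139.6, 122 and 124 CPM and IMZ + CTD rats 154, 137, 191 and 207 CPM. All 4 THI + CTD rats lay below the lowest control, with -0.41 ± 0.13 (adjusted p = 0.0655), and with CTD the log2 fold change was -0.18 ± 0.14 (adjusted p = 0.458), neither past the threshold.

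Both Hist1h3a copies, which encode a core H3, rose in all 3 groups that received CTD and in THI + IMZ. Hist1h3a (ENSRNOG00000050478) was at 1.70 to 4.82 CPM (median 2.91) in controls, 33.0, 14.8 and 9.60 CPM with CTD, 13.4, 13.96, 15.0 and 6.18 CPM with THI + CTD and 6.86, 7.61, 14.9 and 12.1 CPM with IMZ + CTD. All of these rats exceeded the highest control. In THI + IMZ the rats had 2.62, 5.13, 9.59 and 13.4 CPM, from inside the control range to above it. Log2 fold changes were 2.69 ± 0.36 (adjusted p = 4.88e-06), 2.04 ± 0.34 (adjusted p = 0.000413), 1.81 ± 0.34 (adjusted p = 0.00396) and, for THI + IMZ, 1.38 ± 0.35 (adjusted p = 0.0374).
The THI + IMZ call was lost without rat 3 or 4, or without any of control rats 1, 2, 4, 6, 7 and 8, at 0.96 (adjusted p = 0.262) without rat 4. Hist1h3a (ENSRNOG00000045646) had 2.47 ± 0.34 (adjusted p = 7.12e-06) with CTD, 2.03 ± 0.32 (adjusted p = 0.000215) with THI + CTD, 1.59 ± 0.33 (adjusted p = 0.00703) with IMZ + CTD and 1.40 ± 0.33 (adjusted p = 0.0225) with THI + IMZ. Its call with IMZ + CTD or with THI + IMZ was lost without rat 3 or rat 4 of that group, and was 1.34 (adjusted p = 0.0894) for IMZ + CTD without rat 3 and 1.05 (adjusted p = 0.175) for THI + IMZ without rat 4. With IMZ alone, 3 of 4 rats lay above the controls for the first copy (5.09, 6.13, 11.8 and 4.65 CPM), and its log2 fold change was 1.22 ± 0.35 (adjusted p = 0.180).

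H4 genes, the partners of H3, split in direction. Hist1h4a was at 0.403 to 1.90 CPM (median 0.967) in controls, 11.4, 4.99 and 4.98 CPM with CTD, 3.76, 4.48, 4.599 and 1.72 CPM with THI + CTD and 1.81, 3.07, 3.91 and 3.69 CPM with IMZ + CTD. It rose by 2.83 ± 0.39 (adjusted p = 7.36e-06), 1.86 ± 0.37 (adjusted p = 0.00273) and 1.64 ± 0.38 (adjusted p = 0.0187), and by 1.74 ± 0.37 (adjusted p = 0.0134) with THI + IMZ. The IMZ + CTD call was lost without rat 2, 3 or 4 and the THI + IMZ call without rat 3 or 4. Without rat 3 of each mixture they were 1.51 (adjusted p = 0.1098) and 1.41 (adjusted p = 0.108). All CTD rats lay above the controls, and 3 of 4 rats of each CTD mixture.
The abundant Hist1h4b (ENSRNOG00000030142) fell. Controls had 38.4 to 65.9 CPM (median 49.0), CTD rats 34.5, 25.3 and 38.7 CPM and THI + CTD rats 37.7, 33.4, 23.7 and 33.0 CPM, of which 2 of 3 and 4 of 4 lay below all controls. Log2 fold changes were -0.64 ± 0.18 (adjusted p = 0.0138) and -0.68 ± 0.16 (adjusted p = 0.00931), and the calls were lost without CTD rat 2 (-0.49, adjusted p = 0.138) and THI + CTD rat 3 (-0.56, adjusted p = 0.0756). Another abundant copy, HIST1H4B (ENSRNOG00000050933), did not pass the test in any group, with log2 fold changes from -0.22 to 0.13.

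**Figure D3:**
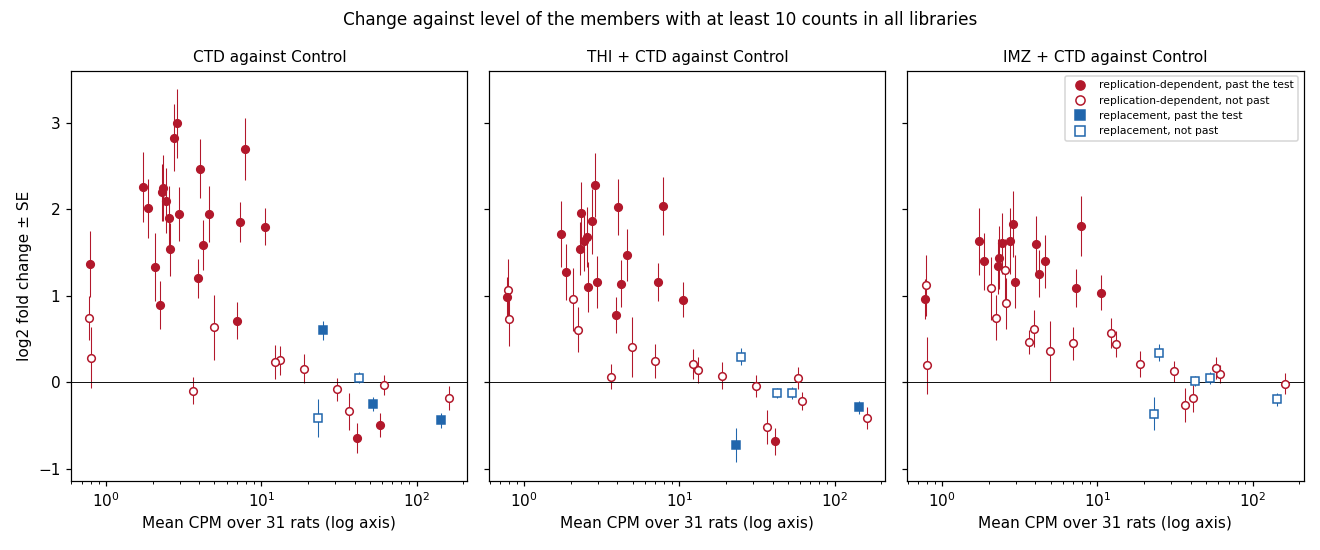
Log2 fold change against control (vertical axis, bars are SE) by mean CPM over the 31 rats (horizontal log axis) for the 39 members with at least 10 counts in all libraries, in CTD, THI + CTD and IMZ + CTD. Filled symbols passed the test, circles are replication-dependent and squares replacement members. The filled circles above 0 lie at or below about 10.6 CPM, the mean of Hist1h2bg, and the genes with the highest CPM lie near or below 0.

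Of the replacement histones, H2afz, the H2A.Z gene of promoters and enhancers, was the only one of the 8 to rise in any comparison with control. It was at 18.4 to 24.1 CPM (median 22.3) in controls and 41.2, 31.2 and 26.2 CPM with CTD, all 3 rats above the controls, with a log2 fold change of 0.60 ± 0.11 (adjusted p = 0.000175). THI + CTD rats had 27.1, 27.3, 27.7 and 24.3 CPM, also all above the controls, and IMZ + CTD rats 23.2, 26.5, 30.2 and 30.02 CPM, but these log2 fold changes of 0.30 ± 0.10 (adjusted p = 0.0775) and 0.34 ± 0.10 (adjusted p = 0.0746) did not pass.
H3f3b, a gene of the H3.3 protein that replaces H3 outside S phase, fell with CTD and THI + CTD. Its controls lay at 151 to 173 CPM (median 160.4), CTD rats at 118, 109.6 and 131 CPM and THI + CTD rats at 149, 128, 121 and 133 CPM, all below the lowest control. The log2 fold changes were -0.44 ± 0.08 (adjusted p = 0.000424) and -0.29 ± 0.07 (adjusted p = 0.0202), the latter lost without rat 2 or 3 of the mixture (-0.24, adjusted p = 0.124 without rat 3).
In the other groups H3f3b had log2 fold changes from -0.19 to -0.13, none past the test. H3f3c, annotated as another H3.3 gene, fell with CTD, with 52.4 to 60.9 CPM (median 55.2) in controls and 49.8, 42.7 and 47.5 CPM in the CTD rats, all below the controls. Its log2 fold change was -0.25 ± 0.08 (adjusted p = 0.0334). That call was lost without CTD rat 2 or 3 or control rat 3, 7 or 8, at -0.19 (adjusted p = 0.222) without CTD rat 2. H3f3b and H3f3c can share reads, so their separate values are uncertain.

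H1f0, the linker histone of resting and differentiated cells, fell with THI + CTD. Controls spread widely, at 19.8 to 39.4 CPM (median 30.2), and the THI + CTD rats had 23.03, 20.4, 13.97 and 14.8 CPM, of which 2 lay below all controls. Its log2 fold change was -0.72 ± 0.20 (adjusted p = 0.0291), lost without control rat 6 or 8 or THI + CTD rat 3 or 4 (-0.62, adjusted p = 0.149 without rat 3). THI rats had 25.4, 14.1, 17.6 and 20.2 CPM and IMZ rats 19.1, 20.9, 19.2 and 20.0 CPM, with -0.63 ± 0.20 (adjusted p = 0.223) and -0.59 ± 0.20 (adjusted p = 0.299). The CTD rats had 20.7, 12.0 and 34.9 CPM, from below the lowest control to inside the control range, with -0.41 ± 0.22 (adjusted p = 0.244).
H2afy, which encodes macroH2A1, a variant of repressed chromatin, varied little. Controls had 39.5 to 46.1 CPM (median 42.8) and all treated rats 37.4 to 47.0 CPM, with log2 fold changes from -0.13 to 0.07 and no call. H1fx stayed at or below 1.37 CPM, H2afy2 (macroH2A2) at or below 0.483 CPM, and H2afj had 2 counts in all, and none of these 3 passed the test in any group at this depth. The 8 genes summed to 299 to 327 CPM in controls and 241 to 285 CPM with CTD, and all rats of THI, IMZ, CTD and THI + CTD lay below the lowest control sum.

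**Figure D4:**
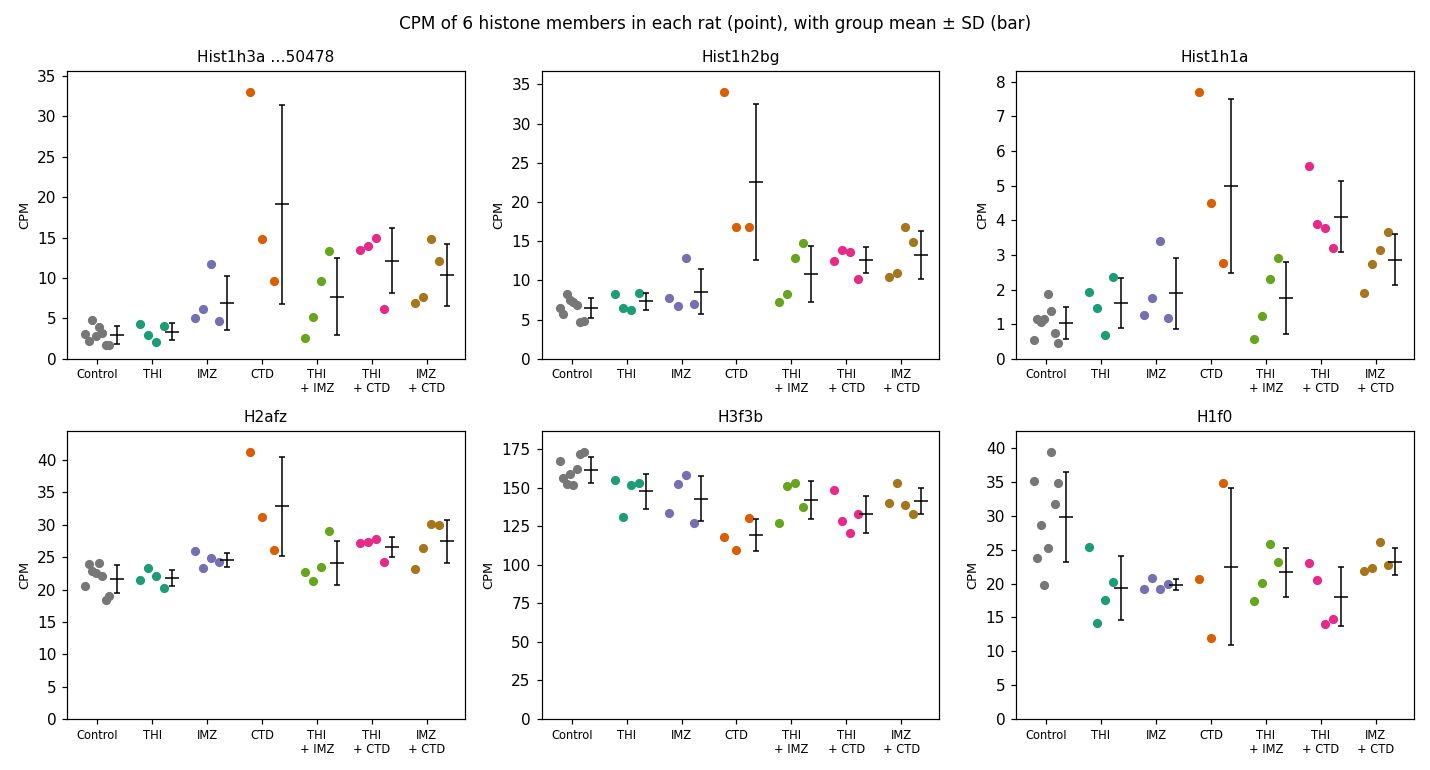
CPM (vertical axes, from 0) of Hist1h3a (ENSRNOG00000050478), Hist1h2bg, Hist1h1a, H2afz, H3f3b and H1f0 in each rat by group, with the group mean and SD as a bar. For the first 3 genes all rats that received CTD lie above the controls, H3f3b is below the controls in CTD and THI + CTD, and H1f0 overlaps them.

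A mixture with CTD was compared with CTD alone in its own test, with CTD at 134 or 135 in place of 288 mg/kg body weight/day plus a partner. THI + CTD called no member against CTD, beside 2.67% of all genes. With an unadjusted p under 0.05 there were 7 of 55 (against 15.2% of all genes), and DESeq2 called 2 (against 4.7%). Among replication-dependent members 39 of 47 log2 differences were negative, with a median of -0.38. For Hist1h2bg the difference was -0.84 ± 0.25 (adjusted p = 0.0637), which does not show that both groups act alike.
IMZ + CTD called 2 members against CTD, both higher, beside 5.53% of all genes (2.83% higher), and DESeq2 called 4 (against 8.31%). Hist1h1d (ENSRNOG00000047459) had 44.3, 71.5, 68.8 and 66.7 CPM with the mixture and 41.2, 33.5 and 44.6 CPM with CTD, a difference of 0.66 ± 0.16 (adjusted p = 0.0112) that became 0.55 (adjusted p = 0.0830) without CTD rat 2. H3f3c had 52.2, 56.9, 58.4 and 61.9 CPM against 49.8, 42.7 and 47.5 CPM, a difference of 0.30 ± 0.09 (adjusted p = 0.0415), lost without CTD rat 2 or 3 or mixture rat 2, 3 or 4 (0.24, adjusted p = 0.205 without CTD rat 2). The count of calls was 0 without CTD rat 2 and 1 without mixture rat 2, 3 or 4. Over the replication-dependent members 33 of 47 differences were negative, with a median of -0.32.

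Over the 7 groups together, 28 members differed in 1 test of all treatments (26 replication-dependent, H2afz and H3f3b), beside 9.51% of all genes. The 26 included 2 of 4 H1, 10 of 16 H2A, 8 of 12 H2B, 4 of 7 H3 and 2 of 8 H4 genes.

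Genes that act with the histones were also called, mostly in the groups with CTD. A list of 16 S phase and proliferation genes had 15 higher and 0 lower with CTD, 13 higher with THI + CTD, 6 with IMZ + CTD, 4 with THI + IMZ and 0 with THI or IMZ, each with 0 lower. Over all genes, 6.62% were higher with CTD, 2.67% with THI + CTD, 1% with IMZ + CTD and 0.849% with THI + IMZ. Median log2 fold changes of the list were 2.14, 1.43, 1.07 and 0.70 in the 4 groups with calls. They were 0.56 with IMZ and -0.19 with THI. Top2a, the topoisomerase of replicating and mitotic DNA, was at 1.33 to 5.12 CPM in controls and 16.5 to 57.8 CPM with CTD, a log2 fold change of 3.40 ± 0.45 (adjusted p = 4.14e-06). Ccne1, cyclin E of S phase entry, and Mcm6, a subunit of the replicative helicase, rose with CTD by 2.37 ± 0.33 (adjusted p = 1.03e-05) and 2.26 ± 0.31 (adjusted p = 6.32e-06). The summed list was at 69.9 to 94.0 CPM in controls, 143 to 346 CPM with CTD, 91.9 to 189 CPM with THI + CTD and 110.3 to 165 CPM with IMZ + CTD. It was at 76.5 to 164 CPM with THI + IMZ, 89.6 to 138 CPM with IMZ and 69.4 to 82.4 CPM with THI.

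The 3′ ends of replication-dependent mRNAs are cut next to the stem-loop by their own machinery. Of 14 tested genes of histone mRNA transcription and 3′ end processing, 5 rose with CTD, 4 with THI + CTD and 1 with IMZ + CTD, where 1 fell, and none moved with THI, IMZ or THI + IMZ. These counts stand beside 6.62%, 2.67% and 1% of all genes higher, and 1.46% called in either direction with IMZ + CTD. Slbp, the stem-loop binding protein, was at 14.7 to 16.4 CPM in controls, 21.3 to 28.4 CPM with CTD, 17.6 to 20.5 CPM with THI + CTD and 17.6 to 20.4 CPM with IMZ + CTD. Its log2 fold changes were 0.59 ± 0.08 (adjusted p = 5.77e-06), 0.27 ± 0.07 (adjusted p = 0.0301) and 0.30 ± 0.07 (adjusted p = 0.0287). The THI + CTD call was lost without mixture rat 1, 2 or 3 or control rat 7 (0.23, adjusted p = 0.128 without rat 2). The IMZ + CTD call was lost without mixture rat 2, 3 or 4 or control rat 5 or 7 (0.28, adjusted p = 0.149 without rat 3). Casp8ap2, which encodes the processing factor FLASH, and Eri1, a nuclease that trims histone mRNA ends, rose with CTD by 0.61 ± 0.10 (adjusted p = 0.000129) and 0.58 ± 0.11 (adjusted p = 0.000708).

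Histone chaperones carry histones to DNA. Of 16 in the list, 9 rose with CTD, 5 with THI + CTD, 3 with IMZ + CTD and 2 with THI + IMZ, and none fell. The shares of all genes higher in these groups were, in the same order, 6.62%, 2.67%, 1% and 0.849%. Chaf1a and Chaf1b, subunits of the assembly factor CAF-1 that works behind the replication fork, rose with CTD by 1.58 ± 0.20 (adjusted p = 2.35e-06) and 2.32 ± 0.36 (adjusted p = 4.1e-05). Nasp, a chaperone of H3-H4 and H1, rose with CTD by 0.72 ± 0.12 (adjusted p = 5.86e-05). Outside the symbol rule, H2afx, the H2A variant phosphorylated at DNA breaks, rose with CTD (1.16 ± 0.24, adjusted p = 0.000989), THI + CTD (1.09 ± 0.22, adjusted p = 0.00273) and IMZ + CTD (0.87 ± 0.22, adjusted p = 0.0368). The CTD call was lost without CTD rat 1 (0.53, adjusted p = 0.185). The IMZ + CTD call was lost without mixture rat 2, 3 or 4 or control rat 1, 4, 6, 7 or 8 (0.66, adjusted p = 0.274 without rat 3). Cenpa, the centromeric H3, had 1.11 ± 0.39 (adjusted p = 0.0557) with CTD.

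Germ-cell histones were also among the members. Hist1h2ba, the H2B gene known from testis, was at 0.0183 to 0.292 CPM (median 0.113) in controls and 1.30, 0.543 and 0.523 CPM with CTD, all 3 rats above the controls, a log2 fold change of 2.63 ± 0.51 (adjusted p = 0.000581). This rests on few reads, with 1 to 24 counts in controls and 50, 21 and 17 counts in the CTD rats. With THI + CTD Hist1h2ba rose by 1.93 ± 0.49 (adjusted p = 0.0170), 1.79 (adjusted p = 0.0592) without rat 1. Hist1h2aa, its H2A counterpart, had 0.29 ± 0.36 (adjusted p = 0.643) with CTD, and Hist3h3 had 7 counts in all. The 4 germ cell markers tested had 0 counts in all CTD and IMZ + CTD rats and summed to at most 0.147 CPM in any rat.

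A pair of Hist2 members differed widely between rats of the same group, and they were singled out after their values were seen. Hist2h2aa3, an H2A gene, had 16 counts in control rat 5 and 7 in IMZ + CTD rat 2, against 105 to 863 counts in the other 29 rats. Hist2h3c2 (ENSRNOG00000028975) was at 0 to 2.27 CPM over all rats. It had 2.16, 0.749 and 0 CPM in the CTD rats and 0.0964, 2.27, 1.02 and 0 CPM in the THI + CTD rats. Every group held rats with at most 5 counts beside rats with at least 23. Neither gene was called in any comparison, with 2.78 ± 1.07 (adjusted p = 0.0891) for the latter with CTD.

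**Figure D5:**
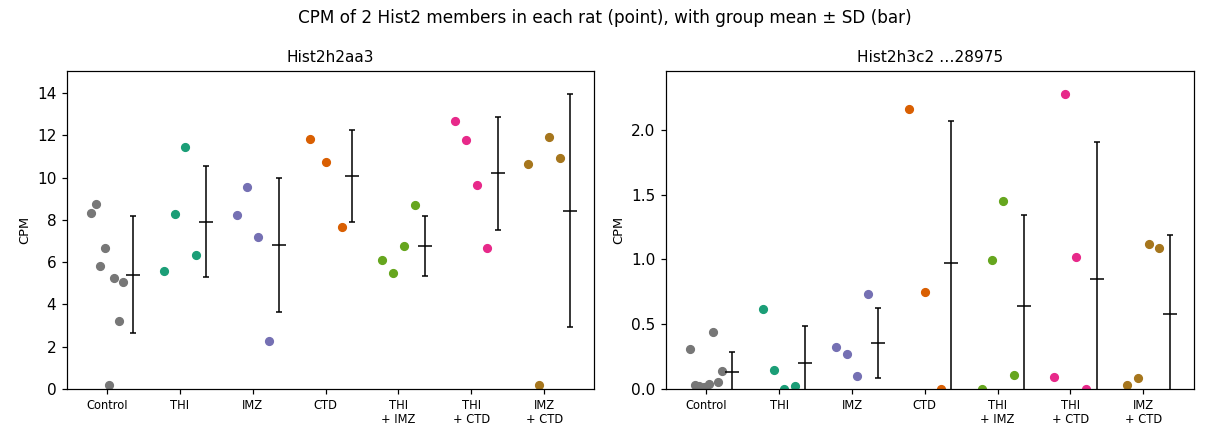
CPM (vertical axes, from 0) of Hist2h2aa3 and Hist2h3c2 (ENSRNOG00000028975) in each rat by group, with the group mean and SD as a bar. Control rat 5 and IMZ + CTD rat 2 lie near 0 for Hist2h2aa3, and for Hist2h3c2 low and higher rats stand side by side in every group. Bars that would reach below 0 are cut there.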

How the data were processed

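Liver total RNA of 31 rats was sequenced by the authors from stranded total RNA libraries. Per the labels, the deposited values are raw counts per gene, and the submitters' processing notes name FastQC 0.11.5, STAR 2.5.2b, Rnor_5.0 and DESeq2 1.15.1. The annotation release and the strand setting of counting are not given in the sources used here. Genes with a count sum of at least 2 (19904) were fitted with edgeR 4.0.16 in R 4.3.3: TMM scaling, 1 mean per group over 31 rats, quasi-likelihood tests, Benjamini-Hochberg adjustment over all genes and a threshold of 0.05. Errors after ± are SE of log2 fold changes. Library totals ran from 31820322 to 101230067 counts, which limits precision for members below about 10 counts.

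The members and lists were chosen with earlier results of these data known. Named were all replacement members, the 15 replication-dependent members with the smallest p among the 7 groups, the 5 with the highest mean CPM, and at most 3 genes per companion list by p. Hist1h1b, the germ-cell and Hist2 members and Slc4a1 were named after their values were seen. Alternatives were DESeq2 1.42.0 size factors and tests, filterByExpr, no filter, a replicate block, the compared groups alone, and leaving out each rat. The fit was tested on simulated data of 19357 genes, where it called 77% of genes changed by a log2 of 1 and 98% of those changed by 2 in the CTD comparison. The changed genes were drawn only from those with higher count sums, and no outlying rat was simulated. These shares therefore do not cover members with low count sums. Rats with the same number in different groups are separate animals.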

Additional observations from a re-analysis of the deposited data

Results flagged for a closer look

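Single rats that stood apart from the rest of their group were looked for in the named members and summed levels, over 34 measures and 200 groups of 4 to 8 rats. There were 13 such values, 6.5% of the groups, in 8 rats, and chance gives about 1 in 20 groups. The measures included Hist2h2aa3, Hist2h2ac and Hist2h3c2 (ENSRNOG00000028975), chosen after their values were seen, and 1 of the 13 values is of Hist2h2aa3. The share of 6.5% is therefore not a fair test against chance. CTD, with 3 rats, could not be examined in this way.

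Rat 3 of the IMZ group stood apart above its group in 4 of the genes examined. It had 12.8 CPM for Hist1h2bg (next 7.70), 10.1 CPM for Hist1h2ah (ENSRNOG00000049649, next 5.57), 7.29 CPM for HIST1H2BQ (ENSRNOG00000050750, next 3.02) and 4.44 CPM for Hist1h2ai (next 2.04). Hist1h2ak was lowest in THI + CTD rat 4 (1.87 CPM, next 3.64) and highest in IMZ + CTD rat 3 (3.61 CPM, next 2.68). Among abundant members, Hist1h2bq (ENSRNOG00000021198) was highest in control rat 2 (233 CPM, next 181) and HIST1H4B (ENSRNOG00000050933) in THI rat 3 (78.8 CPM, next 64.7). Hist2h2aa3 was lowest in IMZ + CTD rat 2 (0.199 CPM, next 10.6).

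H3f3b was lowest in THI rat 2 (131 CPM, next 152) and H3f3c highest in control rat 3 (60.9 CPM, next 56.2). For H2afj the values above 0 were 0.0302 CPM in control rat 2 and 0.0284 CPM in IMZ + CTD rat 2, 1 count each.

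IMZ + CTD differed from CTD by its own test for 2 of 55 members, beside 5.53% of all genes, and for 0 without CTD rat 2, with log2 differences of 0.66 for Hist1h1d (ENSRNOG00000047459) and 0.30 for H3f3c. Both were lower with CTD than in controls.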

How the results depend on the processing

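Of 78 calls of single members, none changed direction under any alternative. All 78 kept their call with DESeq2 size factors, the DESeq2 Wald test, filterByExpr and no filter, and 73 kept it when only the compared groups were fitted. Counts of called members changed by more than 1.5 times in these cases. With the DESeq2 Wald test they were 1 for IMZ, 12 for THI + IMZ, 2 for THI + CTD against CTD and 4 for IMZ + CTD against CTD. With filterByExpr the count for THI + CTD against CTD was 2. With only the compared groups it was 2 for THI + IMZ and 1 for IMZ + CTD against CTD.

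Leaving out 1 rat at a time gave 0 to 0 calls for THI and for IMZ, 21 to 31 for CTD, 0 to 9 for THI + IMZ, 17 to 25 for THI + CTD, 2 to 22 for IMZ + CTD, 0 to 1 for THI + CTD against CTD, 0 to 3 for IMZ + CTD against CTD and 25 to 29 over the 7 groups. The rats behind the low THI + IMZ and IMZ + CTD counts are named with those results.

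With the replicate number as a block, counts were 25 for CTD, 0 for THI + IMZ, 15 for THI + CTD, 0 for IMZ + CTD, 1 for IMZ + CTD against CTD and 22 over the 7 groups, and 40 of the 78 calls were kept. Of 23 pairs of same-numbered rats, 6 had deviations correlated above 0.1 (range -0.198 to 0.355). The labels do not say whether the number stands for a batch or an order, and this was not tested.

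Of the 55 members, 16 had fewer than 10 counts in some library, H2afj, H1fx and H2afy2 among them, and their power was not measured. The cause of the changes with each setting was not tested.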

Other observations

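The linker histone pool held values that belong to no comparison above. H1f0 made up 18.8 to 27.2% of the CPM of H1 genes (replication-dependent H1 and H1f0) in controls. It was 15.5 to 27.9% in CTD rats, with 2 of 3 rats below all controls and 1 above them, 13.9 to 18.5% with THI + CTD, with 4 of 4 below, and 15.7 to 19.7% with IMZ, with 2 of 4 below. THI (10.97 to 18.9%), THI + IMZ (15.3 to 19.6%) and IMZ + CTD (16.6 to 21.6%) each had 3 of 4 rats below all controls. No test was run on these shares. CPM is not divided by length, so these are shares of reads and not of molecules.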
